A study of Arabidopsis thaliana with 6 samples.

Results

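The genes ABI3, ABI4, ABF3, ABF4 and EEL encode transcription factors of the abscisic acid (ABA) response of plants. Their transcripts were compared here between anac089-2 and wild-type seeds of Arabidopsis thaliana. The 5 genes were taken by symbol, EEL (AT2G41070) from the probe annotation of the array and ABI3 (AT3G24650), ABI4 (AT2G40220), ABF3 (AT4G34000) and ABF4 (AT3G19290) from the authors' gene titles. Each had 1 probe set, so the set is 5 of 13331 genes named here and 5 of 22746 probe sets other than controls. ABF4 is titled AREB2, a name that RefSeq gives to the same gene, and the title of EEL calls it BZIP12. Both groups were in the Columbia-0 (Col-0) background. The wild-type group (3 biological replicates) and the anac089-2 group (3 biological replicates) had the same treatment, 3 days of imbibition in water at 4 °C in the dark followed by 3 h in light at 22 °C with 5 µM ABA, and were collected before germination. The labels do not say what kind of lesion anac089-2 carries or whether seeds of several plants were pooled. No seeds without ABA were analysed here, so a difference in the response to ABA cannot be told apart from a difference present without it. Whole seeds were extracted, and in such bulk RNA fewer cells of a type and less transcript per cell cannot be told apart.

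ABA stops imbibed seeds from germinating. Its receptors bind protein phosphatases of type 2C, which frees SnRK2 kinases to phosphorylate bZIP transcription factors such as the ABFs and ABI5. These bind ABA-responsive elements in the promoters of late embryogenesis abundant (LEA), dehydrin and other protective genes. ABI3 is a B3-domain factor that binds RY elements of seed storage and LEA genes and acts together with ABI5. ABI4 is an AP2-domain factor known from sugar, ABA and organelle-to-nucleus signalling. EEL is a bZIP relative of ABI5 that binds the same site of the EM1 promoter and was first described as lowering EM1.

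Levels are log2 values normalised with robust multi-array averaging (RMA), each on its own probe set, so they are compared between arrays and never between genes. Array medians lay between 3.97 and 4.01 except in wild-type replicate 3 (3.80), whose correlation with the other arrays of its group was also the lowest of the 6 (mean 0.982, the others 0.987 to 0.996). Over all probe sets 1120, or 4.92%, passed at a limma adjusted p under 0.05, 2.94% higher and 1.98% lower in anac089-2. When anac089-2 replicate 1, 2 or 3 was left out, 6, 470 and 4 probe sets passed. Leaving out wild-type replicate 1, 2 or 3 gave 521, 301 and 1667. Gene names were read from titles only for the 5 genes and the listed genes, and 8685 probe sets have no gene name here. None of the named ones is ANAC089, which is on no list. The titles were not searched for it, so the mutated gene was not checked. Its absence here does not mean that the array lacks it. Seed storage and LEA genes were among the brightest probe sets on every array, as with CRA1, a cruciferin gene, at 13.55 to 13.70.

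None of the 5 genes passed the test across all probe sets, and ABI4, ABI3, EEL and ABF4 nevertheless had all 3 anac089-2 arrays above all 3 wild-type arrays. ABI4 had the largest difference, 1.65-fold, followed by ABI3 (1.42-fold), EEL (1.31-fold) and ABF4 (1.17-fold). ABF3 was near the low end of the array scale in both groups and had no separation between them.

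ABI4 was measured at 6.79, 6.49 and 6.25 in wild-type replicates 1, 2 and 3 and at 7.02, 7.21 and 7.47 in anac089-2 replicates 1, 2 and 3. The groups did not overlap, and the lowest mutant array stood 0.23 above the highest wild-type array. The wild-type mean was 6.51 ± 0.271 (SD, n = 3), and that of anac089-2 was 7.23 ± 0.226 (SD, n = 3). The log2 difference was 0.72 ± 0.173 (SE), with a 95% interval from 0.32 to 1.13 and a limma adjusted p = 0.0622. A difference of 0.786 would have been needed to pass at this SE.

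ABI3 was measured at 8.51, 8.88 and 8.91 in wild-type replicates 1, 2 and 3 and at 9.27, 9.11 and 9.43 in the corresponding anac089-2 replicates. Every mutant array was higher than every wild-type array, by at least 0.20, with wild-type replicate 1 the lowest of the 6. The log2 difference was 0.50 ± 0.145 (SE), with a 95% interval from 0.16 to 0.84 and a limma adjusted p = 0.106. Without wild-type replicate 1 the difference was 0.38.

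The bZIP gene EEL was measured at 6.69, 6.84 and 6.75 in wild type and at 7.27, 7.15 and 7.04 in anac089-2. Here too the groups were apart by 0.20, and the spread within each was small (SD 0.0755 in wild type and 0.115 in anac089-2, n = 3 each). The log2 difference was 0.39 ± 0.104 (SE), with a 95% interval from 0.15 to 0.64 and a limma adjusted p = 0.0812.

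ABF4, a bZIP factor that binds ABA-responsive elements, was measured at 4.79, 4.76 and 4.65 in wild type and at 5.01, 4.85 and 5.02 in anac089-2. The groups were apart by only 0.06. The log2 difference was 0.23 ± 0.0996 (SE), with a 95% interval from -0.01 to 0.46 and a limma adjusted p = 0.274.

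ABF3, the closely related bZIP gene, was measured at 3.37, 3.84 and 3.63 in wild type and at 3.40, 3.54 and 3.47 in anac089-2. All 3 mutant values lay within the wild-type range. The log2 difference was -0.14 ± 0.135 (SE), with a 95% interval from -0.46 to 0.17 and a limma adjusted p = 0.631. Every array had ABF3 below its own median, and of the 11523 probe sets with mean levels under 4 only 30, or 0.26%, passed.

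**Figure D1:**
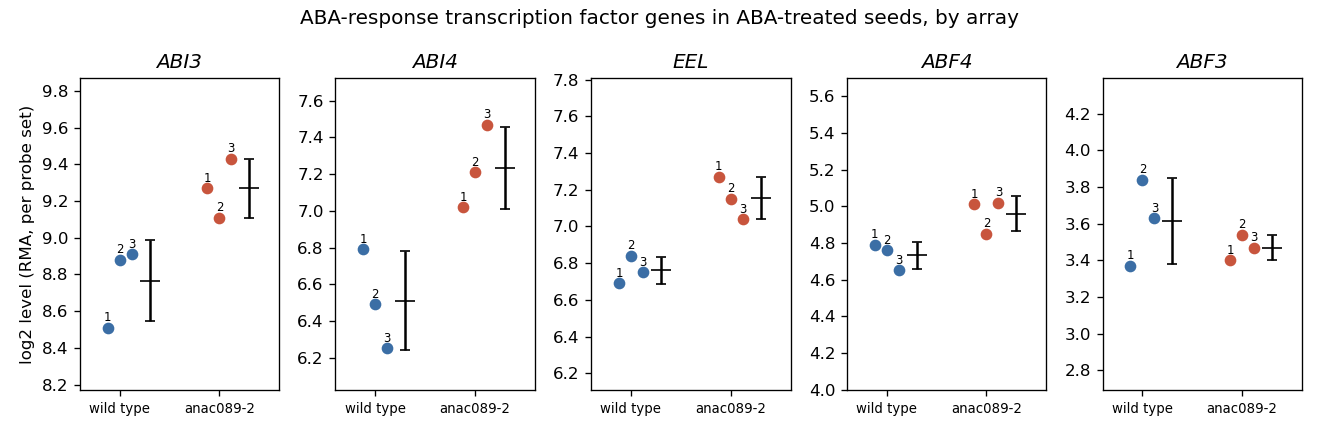
Log2 level of each gene on each of the 6 arrays (points, numbered by replicate), with the group mean and SD (n = 3) as black bars; every panel spans the same range in log2 units. The anac089-2 arrays stand above the wild-type arrays for ABI3, ABI4, EEL and ABF4, and within the wild-type range for ABF3.

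Of the 5 genes 0 passed at a limma adjusted p under 0.05, where 4.92% of all probe sets did, and 3 (ABI4, EEL and ABI3) had an unadjusted p under 0.05, where 19.3% did. By the unadjusted p, ABI4 ranked 1418 of 22746, EEL 1768, ABI3 2118, ABF4 4636 and ABF3 11669. Groups that do not overlap with anac089-2 higher were found for 4 of the 5 and for 15.8% of all probe sets (24% in either direction, 8.23% with anac089-2 lower). The genes had been chosen with these values known, so the 4 of 5 is a description. In the authors' deposited table the 5 genes also stayed above an FDR of 0.05, the lowest being that of ABI4 at 0.0630.

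In the values as deposited, probe sets of middle levels as a whole were higher in anac089-2, and the 5 differences stand differently against that shift. The median difference over all probe sets was 0.037 as deposited. It was 0.003, -0.053 and -0.004 after a second quantile normalization, median centring and cyclic loess. Of the probe sets that passed, 59.7% were higher as deposited, and 52.4%, 51.2% and 50.6% after these scalings. The part of scaling in the shift was not tested. At mean levels of 6 to 8 the median difference of 4100 probe sets was 0.14, and 8.93% of them passed. There 7.24% had a difference at least as high as that of ABI4 and 24.4% at least as high as that of EEL. At levels of 8 to 10 the median of 2127 probe sets was 0.05, 15.8% passed, and 12.1% were at least as high as ABI3. ABF4 lay close to its surroundings, since the median at levels of 4 to 6 was 0.20, 5.2% passed, and 46.7% of 4381 probe sets were at least as high. Groups with all anac089-2 arrays higher made up 25.3% to 27.7% of the probe sets in these 3 level ranges.

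**Figure D2:**
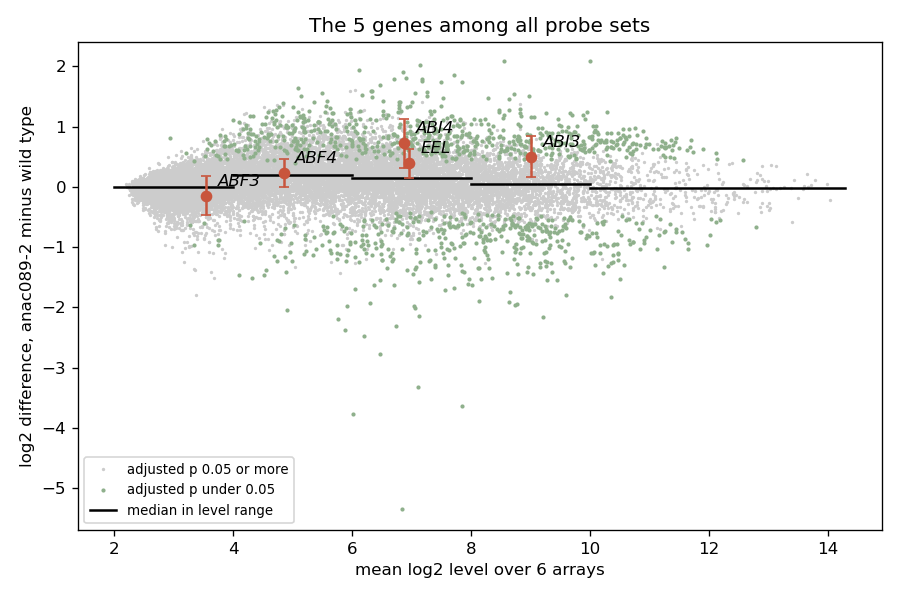
Log2 difference (anac089-2 minus wild type) against mean log2 level for all 22746 probe sets, with the 5 genes and their 95% intervals in red and the median of each level range as a black line. ABI4 and ABI3 lie 0.58 and 0.45 above the median of their range, EEL 0.25 above it and ABF4 0.03 above it.

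Scaling the arrays again changed which genes kept the groups apart. ABI4 had all mutant arrays above all wild-type arrays as deposited and after a second quantile normalization, median centring and cyclic loess, with gaps of 0.17 to 0.23. Its difference was 0.59, 0.63 and 0.58 under these 3 scalings, and it passed under median centring (limma adjusted p = 0.0491). ABI4 also passed without the dimmest 40% of probe sets (0.0413) and with array weights (0.0269). ABI3 kept differences of 0.50, 0.41 and 0.45 under the 3 scalings, with a gap of 0.17 and 0.10 after quantile normalization and cyclic loess, while after median centring anac089-2 replicate 2 met wild-type replicate 3 at 9.07.

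The differences of EEL and ABF4 were smaller under each of the 3 scalings than as deposited, as were those of ABI4 and ABI3. After quantile normalization EEL stood at 7.02 on wild-type replicate 3, with anac089-2 replicate 3 at 6.99, so the groups overlapped, and its difference was 0.28. Cyclic loess gave EEL 0.25, also with overlap, whereas median centring gave 0.30 with the groups apart by 0.08. The difference of ABF4 was 0.01 after quantile normalization, 0.02 after cyclic loess and 0.14 after median centring, with no gap between the groups under any of them. Quantile normalization placed ABF4 higher on wild-type replicate 3 (from 4.65 to 5.03) and lower on all 3 mutant arrays (from 5.01, 4.85 and 5.02 to 4.88, 4.77 and 4.92). With that wild-type array left out and no new scaling, EEL had 0.39 and ABF4 0.19. The difference of ABF3 ran from -0.27 without wild-type replicate 1 to -0.03 without wild-type replicate 2.

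**Figure D3:**
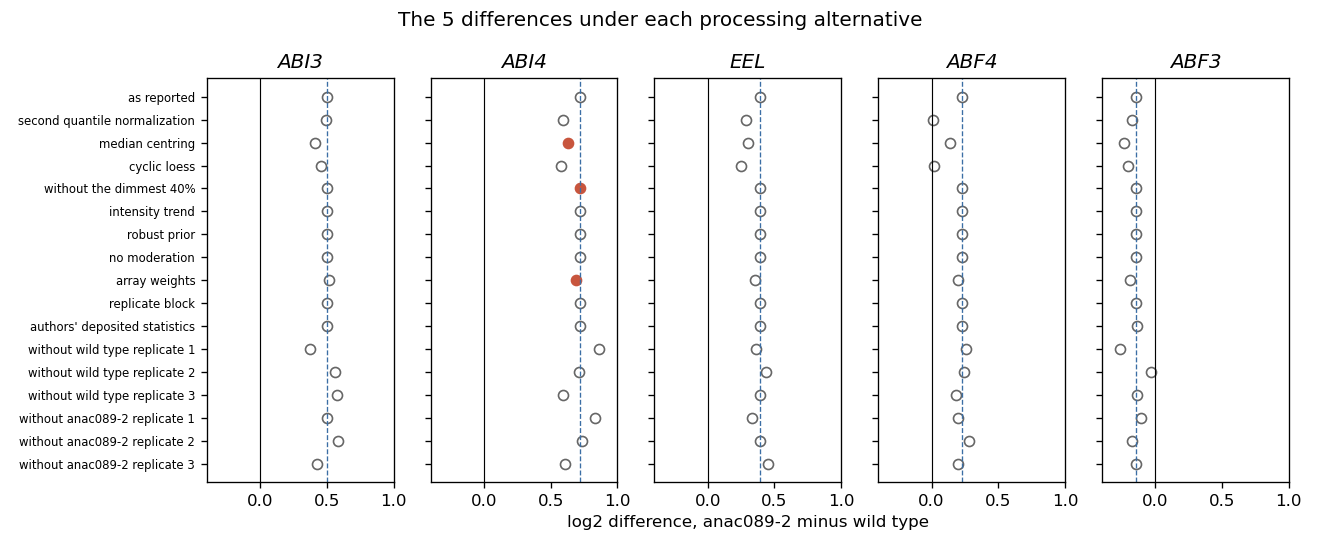
Log2 difference of each gene under each of 16 alternatives and as reported (dashed line); filled red points have a limma adjusted p under 0.05. Every point lies on the same side of 0 as the reported value for each gene, and the 3 filled points all belong to ABI4.

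The genes around the 5 were taken from lists of regulators and known targets. Of 108 listed genes other than the 5, 39 were measured under a name found here. In these 39 genes 9 fell, 0 rose and 30 did not pass, where 1.98% of all probe sets fell and 2.94% rose. Without anac089-2 replicate 1 or replicate 3 the count was 0, without replicate 2 it was 4, without wild-type replicates 1, 2 and 3 it was 5, 3 and 9, and with the replicate number as a block it was 5. The median difference of the 39 was -0.07, against 0.04 over all probe sets. The lists were chosen with earlier results of these data known, so the 9 of 39 is a description. The share of all probe sets that passed also changed with level. It was 0.26% at mean levels under 4 and 25.9% at 10 or more, in either direction.

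Among other bZIP factors of seeds, 0 of 4 measured genes passed, where 4.92% of all probe sets did. AREB3, a relative of ABI5, had a difference of 0.19 ± 0.139 (SE), GBF4, a G-box binding factor, 0.07 ± 0.0983 (SE), BZIP53, which acts on storage protein promoters, -0.06 ± 0.177 (SE), and BZIP15 -0.07 ± 0.108 (SE). Without wild-type replicate 3 the difference of AREB3 was 0.06, and without wild-type replicate 2 it was 0.30. GBF4 and BZIP53 were picked after their values were seen, and the sign of GBF4 turned under all 3 scalings. The groups of all 4 overlapped. ABI5 itself, ABF1 and ABF2 had no probe set that could be named. A probe set titled an ABA-responsive element-binding factor, with no gene named for it, was measured at 5.77, 6.06 and 5.88 in wild type and at 6.34, 6.08 and 6.49 in anac089-2, a difference of 0.40 ± 0.138 (SE, limma adjusted p = 0.166). Another, titled a bZIP factor and putative ABA-responsive element-binding protein, stood the other way, at 9.29, 8.92 and 9.24 in wild type against 8.43, 8.66 and 8.90 in anac089-2. Its difference was -0.49 ± 0.158 (SE, limma adjusted p = 0.144). Both were picked after their values were seen. These bZIP genes and titles held differences of both signs, none past the threshold.

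ABI3 belongs to the network of maturation regulators with LEC1, LEC2 and FUS3, which build the embryo's reserves. Besides ABI3 and ABI4, 6 of the 10 listed genes of that group were measured and 0 passed, where 4.92% of all probe sets did. LEC1, LEC2, FUS3 and L1L had levels under 4 in both groups, and the largest difference of the 6 was that of L1L (-0.34 ± 0.151, SE, limma adjusted p = 0.274), followed by FUS3 (0.19 ± 0.207, SE), whose sign turned without wild-type replicate 3. So ABI3 was the 1 B3 factor of the network measured above the array medians.

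Upstream of the 5 genes the coverage was thin. Of 26 listed receptors, phosphatases and kinases of the ABA pathway, the phosphatase genes ABI1 (-0.09 ± 0.184, SE) and ABI2 (-0.45 ± 0.208, SE) were the 2 measured, and neither passed (limma adjusted p = 0.848 and 0.295). Of 18 upstream regulators 6 were measured and 1 fell, where 1.98% of all probe sets fell. WRKY6, which represses the RAV1 gene, stood at 6.86, 6.83 and 7.26 in wild type and at 6.04, 6.13 and 5.84 in anac089-2. Every mutant array was lower, as in 8.23% of all probe sets, and the difference was -0.98 ± 0.148 (SE, limma adjusted p = 0.0175). WRKY6 lost its call in 5 of 16 alternatives. RAV1, a repressor of the ABI3 and ABI4 genes, was near the bottom of the scale, at 2.92 to 3.20 over the 6 arrays, with a difference of -0.04 ± 0.109 (SE). MYB96, an activator of ABI4, lay at 2.95 to 3.71 with a difference of -0.15 ± 0.189 (SE). The signs of RAV1 and MYB96 turned when single arrays were left out. ARF10, an auxin response factor gene upstream of ABI3, had -0.16 ± 0.171 (SE) with overlapping groups, -0.33 without wild-type replicate 3 and -0.02 without wild-type replicate 1. HY5 and FAR1, activators of the ABI5 gene, had 0.28 ± 0.121 (SE) and 0.30 ± 0.195 (SE), also with overlapping groups, and neither passed (limma adjusted p = 0.260 and 0.463). Of 10 genes for turnover or binding of ABI3, ABI5 and the ABFs 1 was measured, the SUMO ligase gene SIZ1 (-0.05 ± 0.124, SE).

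Of 20 measured targets of the 5 genes and of ABI5, 8 fell and 0 rose, where 1.98% of all probe sets fell and 2.94% rose. The 8 include AOX1A, which ABI4 is known to repress. The differences of ABI3, ABI4, EEL and ABF4 were positive and did not pass. A link between the 5 genes and the levels of these targets was not tested. In the list of ABI3 and ABI5 targets 10 of 14 genes were measured, of which 5 fell, 0 rose and 5 did not pass, with a median of -0.46. The 2S albumin gene SESA4 stood at 10.64, 10.65 and 10.95 in wild type and at 9.67, 9.43 and 9.23 in anac089-2. Its difference was -1.30 ± 0.148 (SE, limma adjusted p = 0.0117), and those of SESA2 (-0.92), SESA1 (-0.77) and the cruciferin gene CRU2 (-0.66) passed as well. EM1, the LEA gene whose promoter EEL and ABI5 bind, stood at 12.30, 12.28 and 12.67 in wild type and at 11.59, 11.78 and 11.50 in anac089-2. Its difference was -0.79 ± 0.141 (SE, limma adjusted p = 0.0262), opposite in sign to that of EEL, which did not pass. EM1 lost its call in 7 of 16 alternatives, and so did RD29A. EM6, the other Em gene, had 0.05 ± 0.0872 (SE) and the dehydrin gene RAB18 -0.21 ± 0.0912 (SE), and neither passed (limma adjusted p = 0.798 and 0.261). RAB18 did pass with an intensity trend in the variance (0.0262). At mean levels of 10 or more, where SESA4, SESA1, CRU2 and EM1 lie, 25.9% of all probe sets passed in either direction, and at 8 to 10, where SESA2 lies, 15.8% did.

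AOX1A, the mitochondrial alternative oxidase gene that ABI4 is known to repress, was the 1 of 6 measured ABI4 targets that passed. Of all probe sets 4.92% passed. It stood at 6.88, 7.13 and 6.55 in wild type and at 4.18, 5.29 and 4.51 in anac089-2, a difference of -2.19 ± 0.287 (SE, limma adjusted p = 0.0129). SBE2.2, a starch branching enzyme gene that ABI4 activates, had 0.51 ± 0.158 (SE, limma adjusted p = 0.127) and did not pass. It lay near the array medians, at 3.92, 3.95 and 3.41 in wild type and at 4.30, 4.20 and 4.31 in anac089-2. All mutant arrays were higher for SBE2.2, as in 15.8% of all probe sets, and without wild-type replicate 3 the difference was 0.335. The response regulator genes ARR6, ARR7 and ARR15 and the starch synthesis gene APL3, all with levels under 4, did not pass.

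ABF3 and ABF4 act on dehydration genes among others, and 4 of the 8 listed ABF targets were measured. RD29B stood at 10.49, 10.65 and 10.67 in wild type and at 9.46, 9.79 and 9.28 in anac089-2, a difference of -1.09 ± 0.146 (SE, limma adjusted p = 0.0136). RD29A fell by 0.69 ± 0.111 (SE, limma adjusted p = 0.0204), from 6.25 to 5.56 in the mean. The dehydrin gene COR47 (-0.55 ± 0.382, SE) and ADH1, an alcohol dehydrogenase (0.12 ± 0.0870, SE), did not pass. COR47 rested on wild-type replicate 3, at 4.93 against 3.26 to 3.55 on the other 5 arrays, and its difference without it was -0.06. The targets were picked with these falls known, so no list is particular by its count.

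**Figure D4:**
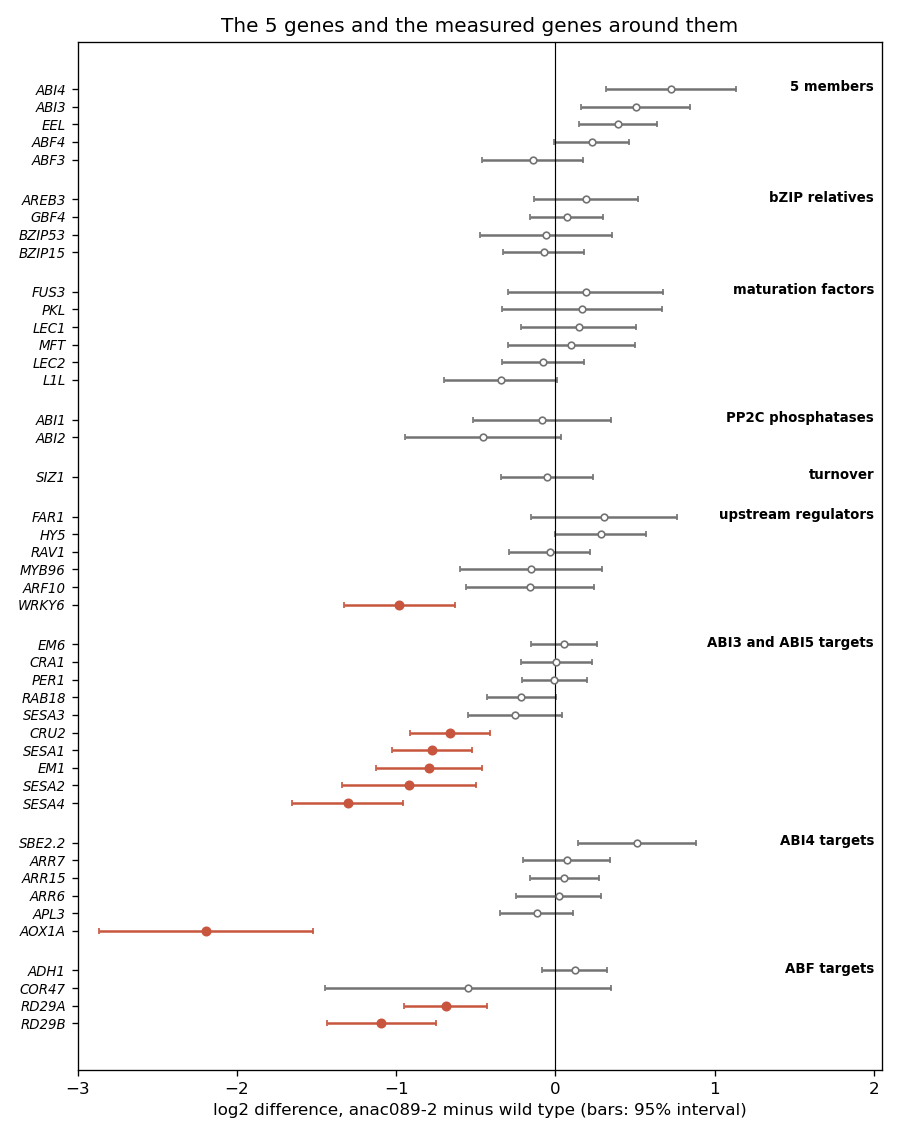
Log2 differences (anac089-2 minus wild type) with 95% intervals for the 5 genes and the 39 measured genes of the lists; filled red points passed at a limma adjusted p under 0.05. The 9 filled points, AOX1A lowest at -2.19, all lie below 0, and ABI4, ABI3, EEL and ABF4 lie above it.

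The genes most like each of the 5 across the 6 arrays were found by the root mean square difference of mean-centred log2 values, over 13557 other probe sets of 1 named gene. The cut of 0.1 used below does not scale with the range of a gene's values, so the counts depend on that range. ABI4, whose values spanned the widest range of the 5 genes, had 5 within 0.1 of it. The closest were AT1G24310 (0.06), AT1G15870, titled a mitochondrial glycoprotein family protein (0.08), and AT2G37890, titled a mitochondrial substrate carrier (0.09), with differences of 0.74, 0.68 and 0.85. ABI3 had 9 within 0.1, the closest being the threonyl-tRNA synthetase gene AT5G26830 (0.06), then AT3G27090 and AT5G01350 (0.09 each), with differences of 0.44, 0.40 and 0.41. EEL had 127 within 0.1, led by AT1G06560, titled a NOL1/NOP2/sun family protein (0.02), then AT2G20410 and AT1G21830. ABF3 and ABF4, whose values spanned the smallest ranges of the 5, had 313 and 787. The closest to ABF3 were AT3G50370, AT2G10650 and AT3G43150, and the closest to ABF4 were AT5G44250, AT1G73340 and AT2G45530. The 15 genes named here had limma adjusted p-values of 0.059 or more.

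None of 11 measured markers of seed tissues passed, where 4.92% of all probe sets did. In 5 of the 11 both group means were under 4, a range of levels where 0.26% of all probe sets passed. The mean log2 level of the 4 measured endosperm markers of 6 was 3.17 to 3.63 in wild type and 3.64 to 3.75 in anac089-2. EXPA2, an expansin of the endosperm, had the largest difference of the 4, with 3.45, 4.24 and 3.13 in wild type and 4.44, 5.03 and 5.02 in anac089-2 (difference 1.22 ± 0.297, SE, limma adjusted p = 0.0645). FIS2, the next, had levels under 4 in both groups and a difference of -0.20 ± 0.108 (SE). All 3 mutant arrays were lower for FIS2, as in 8.23% of all probe sets. FWA (0.20) and MEA (0.13) had overlapping groups, so EXPA2 was the 1 endosperm marker with all mutant arrays higher. Such a separation was found for 15.8% of all probe sets. The seed coat list (4 of 7 measured) had 3.33 to 3.52 and 3.33 to 3.42, with GL2 (-0.24) and TT2 (0.09) the largest differences, and the embryo list (3 of 6) 6.14 to 6.57 and 6.21 to 6.45. In the embryo list PDF1 had -0.65 ± 0.243 (SE) and FDH 0.57 ± 0.192 (SE), both epidermal genes, and neither passed. EXPA2 did pass under 6 of 16 alternatives (limma adjusted p = 0.0354 to 0.0492), and PDF1 under 4 of 16 (0.0175 to 0.0322). The part of tissue makeup in the levels of the 5 genes was not tested.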

How the data were processed

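RNA of 6 seed samples was hybridised to Affymetrix ATH1 arrays. The authors deposited log2 values per probe set after RMA, per the submitters' processing notes. They also deposited a table of their limma comparison, whose headers name log2 fold change, a signed fold score, p-value and FDR. There, 4 FDR cells written without a decimal point were taken as 1. A further 6 columns of per-array values were not used. The sources used here give no tool version, array definition file or signal over background.

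Each of 22746 probe sets, without 64 controls, was tested with limma 3.58.1 in R 4.3.3 (lmFit, eBayes, 3 against 3 arrays, no block, two-sided) with Benjamini-Hochberg adjustment over all of them at 0.05. Every difference is the anac089-2 mean minus that of wild type. The number of arrays limits the precision. With 3 against 3 arrays, exact permutation p-values reach 0.1 at the lowest, so none is given. The procedure was tested on simulated data.

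The platform annotation names 1 gene for 13513 probe sets. Another 45 were named from the authors' titles through RefSeq names (assembly TAIR10.1). Lists count a gene once, by its brightest probe set. The members, lists, alternatives and the rule for named genes were chosen with earlier results of these data known. The rule takes the 5 genes, up to 4 genes past the threshold per list (otherwise the 2 largest), known regulators and targets, and the 3 most alike probe sets. No 2 arrays held identical values. Same-numbered replicates did not deviate together (residual correlations -0.089, -0.063 and -0.135), so they were not treated as pairs. Plots used matplotlib 3.10.9.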

Additional observations from a re-analysis of the deposited data

How the results depend on the processing

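Each of the 5 differences kept its sign under all 16 alternatives, and 0 of them ended a call, since none had passed. ABI4 passed under 3 of them, at 0.63 (median centring), 0.72 (without the dimmest 40%) and 0.69 (array weights), and its adjusted p ran from 0.0269 to 0.251. Over the same alternatives the adjusted p ran from 0.0513 to 0.337 for ABI3, from 0.0675 to 0.301 for EEL, from 0.261 to 0.972 for ABF4 and from 0.261 to 0.916 for ABF3. The count of 1120 became 494 with the replicate number as a block, 1 without moderation, 2070 with array weights, 1784 after cyclic loess and 1701 after another quantile normalization, and 4 to 1667 with 1 array left out. The count of 9 listed genes became 5 with the replicate block and 0 without moderation, and 0 to 9 with 1 array left out. The cause was not tested. The block left no call changed among the 5 genes, with ABI4 at a limma adjusted p of 0.132. The labels link same-numbered samples only by the replicate number and do not say whether they shared a batch. The 9 genes that fell kept their sign throughout and lost the call in 46 of 144 values. Signs turned for GBF4 (-0.043, -0.02 and -0.069 after quantile normalization, median centring and cyclic loess) and EM6 (-0.037, median centring). With 1 array left out they turned for BZIP15 (-0.13 to 0.013), BZIP53 (-0.20 to 0.062), ABI1 (-0.23 to 0.082), RAV1 (-0.083 to 0.047), FUS3 (-0.045 to 0.37), SIZ1 (-0.17 to 0.0083) and MYB96 (-0.26 to 0.038). No further probe set of the 5 genes was found, so that alternative gave no value.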

Other observations

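Probe sets whose titles name an ABA-responsive protein or a factor binding ABA-responsive elements numbered 18 without the 5 genes. They were chosen by that wording after the data were examined. AREB3 and the element-binding probe sets without a gene name described above are among them. Of the 18, 0 rose, 2 fell and 16 did not pass, where 1.98% of all probe sets fell and 2.94% rose. Their median difference was -0.04, against 0.04 over all probe sets. In 8 of the 18 both group means were under 4, a range of levels where 0.26% of all probe sets passed. A probe set titled a GRAM domain protein related to ABA-responsive proteins, AT5G13200, stood at 7.62, 7.25 and 7.01 in wild type and at 5.78, 6.43 and 5.98 in anac089-2, a difference of -1.23 ± 0.212 (SE, limma adjusted p = 0.0243). Another titled ABA-responsive protein-related, AT3G02480, fell by 1.08 ± 0.163 (SE, limma adjusted p = 0.0177), with all 3 mutant arrays lower. HVA22a, a small membrane protein gene of the ABA and stress response, stood the other way, at 5.81, 5.39 and 4.67 in wild type and at 6.17, 6.01 and 6.25 in anac089-2 (difference 0.85 ± 0.267, SE, limma adjusted p = 0.131). The other probe sets titled HVA22 had differences from -0.18 to 0.13, and none passed.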
